A study of Mus musculus with 6 samples.

Results

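The neuronal calcium sensors are a family of small EF-hand proteins that bind calcium in neurons and photoreceptors, and 10 of their genes were followed here in the basolateral amygdala of stressed and control mice. They were taken by gene symbol: Hpca (hippocalcin), Hpcal1, Hpcal4, Ncald (neurocalcin delta), Ncs1, Vsnl1 (VILIP-1) and the potassium channel interacting proteins Kcnip1, Kcnip2, Kcnip3 and Kcnip4. All 10 were among the 26264 gene symbols measured, and all 10 passed the filter on low counts that left 14739 genes for testing. The group was built around Hpca because Hpca had the smallest unadjusted p of all genes in the comparison of stress with control. Its difference between the groups is therefore given as a description. Calls and counts below that include Hpca are reported but are not evidence for its difference. The other 9 genes were added as its relatives.

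The study dissected the basolateral amygdala of male mice and sequenced total RNA after ribosomal RNA depletion, 3 libraries from unstressed controls (Ctrl) and 3 from mice under chronic restraint stress (CRS), in which an animal is repeatedly held immobile. Both groups carry the same labels apart from stress, which name no allele or drug; no source used here gives the strain, the age, the length of restraint or whether animals were pooled. Libraries of a group are called biological replicates in the labels.

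Calcium binding exposes the hydrophobic surface of these proteins. In hippocalcin, neurocalcin delta and VILIP-1 it also pushes out a myristoyl group on the glycine after the start methionine, so that the protein moves from the cytosol to membranes. Hippocalcin is abundant in hippocampal pyramidal neurons and is known for its part in the slow afterhyperpolarization and in long-term depression. The KChIP proteins bind Kv4 channels, which carry the A-type potassium current of dendrites, and KChIP3 is also known as calsenilin and as DREAM, a repressor that binds DNA. In brain RNA a lower level of such a gene can come from fewer cells of a type or from less RNA per cell, and these cannot be told apart in bulk tissue.

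The relatedness of the members is visible in their coding sequences, and it bears on whether short reads can be assigned to each of them. The first 90 coding bases of hippocalcin and its close relatives are shown 5′ to 3′ from the GENCODE M21 transcripts (GRCm38), with capitals where a base differs from Hpca at the same position. Each opens with the start codon and a codon for glycine, the residue that carries the myristoyl group.
Hpca: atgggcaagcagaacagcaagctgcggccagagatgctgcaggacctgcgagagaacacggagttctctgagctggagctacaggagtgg
Hpcal1: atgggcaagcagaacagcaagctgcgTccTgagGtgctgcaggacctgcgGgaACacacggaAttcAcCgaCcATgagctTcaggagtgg
Ncald: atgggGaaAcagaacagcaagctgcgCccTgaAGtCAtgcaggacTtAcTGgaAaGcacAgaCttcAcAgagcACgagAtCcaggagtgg
Hpcal4: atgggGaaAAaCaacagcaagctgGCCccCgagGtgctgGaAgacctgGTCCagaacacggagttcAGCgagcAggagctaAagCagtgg
Vsnl1: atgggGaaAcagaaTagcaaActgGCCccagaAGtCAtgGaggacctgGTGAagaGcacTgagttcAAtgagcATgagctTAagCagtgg
Ncs1: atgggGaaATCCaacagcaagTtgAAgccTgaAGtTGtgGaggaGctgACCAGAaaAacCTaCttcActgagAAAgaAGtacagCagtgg
Hpcal1 differed from Hpca at 13 of these 90 bases, Hpcal4 at 21, Ncald at 22, Vsnl1 at 25 and Ncs1 at 32.

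Over the whole coding sequence Hpca was closest to Hpcal1, with 86.1% of aligned bases identical, followed by Ncald with 78.7%. It shared 73.3% with Hpcal4, 72.6% with Vsnl1 and 65.3% with Ncs1. The KChIP genes stood further off, between 56.4% (Kcnip1) and 58.6% (Kcnip2), but 68.3 to 72.4% of bases were identical among the 4 of them. Hpcal4 was closer to Vsnl1, at 82.1%, than to Hpca. The KChIP genes differ most at their 5′ ends and are alike at their 3′ ends, so the last 60 coding bases including the stop codon are shown, with capitals where a base differs from Kcnip2.
Kcnip2: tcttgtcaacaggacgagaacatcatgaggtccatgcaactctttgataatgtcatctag
Kcnip1: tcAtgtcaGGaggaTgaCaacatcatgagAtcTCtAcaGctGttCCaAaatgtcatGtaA
Kcnip3: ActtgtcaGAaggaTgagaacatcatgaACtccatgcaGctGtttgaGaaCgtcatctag
Kcnip4: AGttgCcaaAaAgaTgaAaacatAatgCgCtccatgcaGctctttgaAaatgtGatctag
Kcnip3 differed from Kcnip2 at 10 of these 60 bases, Kcnip4 at 13 and Kcnip1 at 16.

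The libraries had single-end reads of 100 bases. The longest run of coding bases that Hpca shared with another member was 46 bases, with Ncald, so no read of that length within the coding sequence fits both. Across all GENCODE M21 transcripts, 0 of the 3148 different 100-base stretches of Hpca occurred in a transcript of another gene, and the same held for 7 other members. The exceptions were Ncald, with 3.61% of its stretches shared with the overlapping genes Gm28221 and Gm49397, and Kcnip4, with 0.269% shared with overlapping genes. Exons of a gene on the opposite strand covered 1.95% of the exon length of Hpca (Tmem54), 4.04% of Ncald and 7.36% of Kcnip4. No source used here gives the strand setting of the counting, so reads from such overlaps cannot be told apart. Tmem54 itself was at 0.0667 CPM (counts scaled to a common library size, over tested genes and with TMM factors) as a mean over the 6 libraries.

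The depth was even, with 9859449 to 10233706 counts in genes per library, and the 10 members together took 0.344 to 0.373% of them. Neuronal markers were abundant in every library: Snap25, a vesicle fusion protein, was at 1670 ± 220.4 CPM in the control libraries and 1825 ± 167 CPM in the stressed ones (SD, n = 3), and Camk2a, a kinase of glutamatergic neurons, at 1114 ± 174 and 1172 ± 32.1 CPM. Of 10 lists of cell type markers none had a gene at 0 in every library. The dissections differed, however. The summed level of 14 striatal and central amygdala markers was 2127, 990 and 1230 CPM in controls 1 to 3 and 289, 934 and 1114 CPM in CRS libraries 1 to 3. The summed level of 6 choroid plexus markers was 12.4 to 39.0 CPM in control 3, CRS 1 and CRS 3 and 2349 to 6007 CPM in the other libraries. CRS library 1 also held 133 CPM of Fibcd1, a gene of hippocampal pyramidal neurons, against 6.16 to 16.4 CPM in the other 5 libraries. The sum of 7 hippocampal markers was 159 CPM there against 31.5 to 51.8 CPM, and most of that sum was Fibcd1. By the mean log2 level of the 6 tested markers, relative to the control mean, CRS 1 was not the highest. It was at 0.09, with controls 1 to 3 at 0.17, 0.46 and -0.63 and CRS 2 and 3 at 0.01 and -0.37. Values without single libraries are therefore given beside the results they touch.

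Levels can be compared between genes only per length. The order in controls by CPM per kilobase of exon used exon lengths from GENCODE M21. It was led by Hpcal4 at 263 ± 17.5 and Vsnl1 at 193 ± 18.8 (SD, n = 3). Hpca followed at 130 ± 6.14 CPM per kilobase. Ncald was at 78.0 ± 13.6 and Ncs1 at 77.6 ± 1.74 CPM per kilobase, a difference smaller than the spread between libraries on this scale. Hpcal1 was at 50.0 ± 7.64 CPM per kilobase.

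The KChIP genes were lower. Kcnip2 and Kcnip3 stood side by side at 31.7 ± 3.16 and 30.0 ± 4.21 CPM per kilobase in controls, within the spread between libraries. Kcnip4 was at 17.9 ± 1.20 and Kcnip1, a KChIP found in interneurons among other cells, at 2.76 ± 0.263 CPM per kilobase. With the length of the principal transcript alone in place of all exons, Hpca and Vsnl1 exchanged places, at 205 and 198 CPM per kilobase, and the order of the other members was the same. On that scale Ncald was at 179, Ncs1 at 77.6 and Kcnip1 at 9.29 CPM per kilobase, so the near equality of Ncald and Ncs1 and the level of Kcnip1 depend on the length used. Which transcripts the amygdala uses was not measured.

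**Figure D1:**
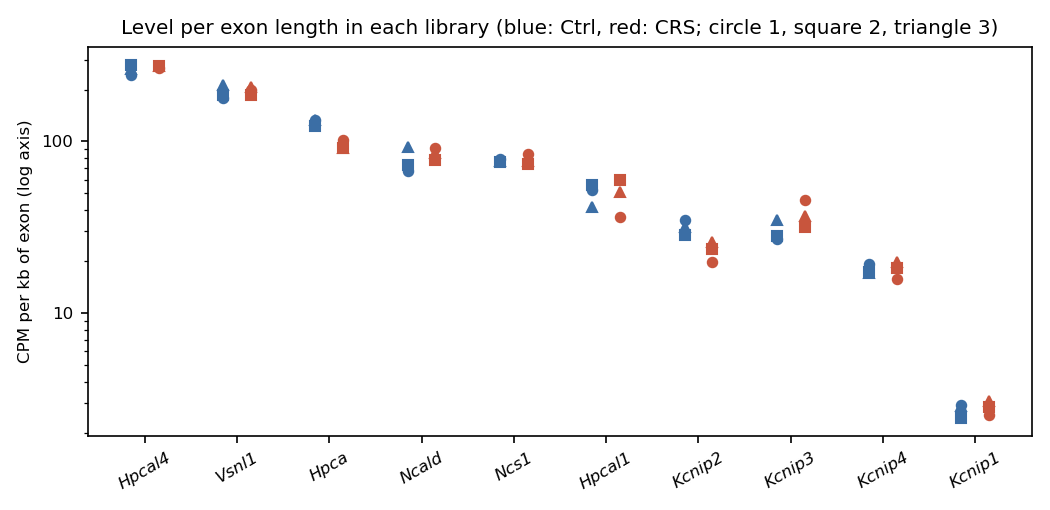
Level of each gene in CPM per kilobase of exon on a log axis, one point per library (blue Ctrl, red CRS, symbols for replicate numbers). Hpcal4 and Vsnl1 lead and Kcnip1 is lowest at 2.46 to 3.06 CPM per kilobase, while for Hpca the CRS points lie below the control points.

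Under stress Hpca stood at 73.2% of its control level and Kcnip2 at 73.4%, Kcnip3 was higher on average with overlapping groups, and the other 7 members were at 98.5 to 109% of control. The relatives closest to Hpca in sequence, Hpcal1 and Ncald, were at 98.5% and 109%. None of the 10 members passed the threshold of 0.05 after Benjamini-Hochberg adjustment over all genes in edgeR's quasi-likelihood test, and 0% of the tested genes did. Of the other tools, DESeq2 and edgeR's likelihood ratio test called 1 member, Hpca, among 2 and 4 genes called in all, and limma-voom called 0. At an unadjusted p under 0.05 there were 2 members lower under stress (Hpca and Kcnip2), where 1.99% of all tested genes were, and 0 members higher, where 1.30% of all were. Because Hpca was chosen on this same comparison, nothing is read from these counts.

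Hpca was measured at 390, 358 and 388 CPM in controls 1 to 3 and at 298, 267 and 266 CPM in CRS libraries 1 to 3. All 3 stressed libraries were below all 3 controls. These values rest on 3923, 3692 and 3799 counts in controls and 2900, 2655 and 2681 under stress, where counting error alone is at most 1.94%. The level under stress was 73.2% of control, or -0.45 on the log2 scale. The spread of Hpca within groups was 0.08 on the log2 scale, and Hpcal4 and Ncs1 had a smaller spread, at 0.071 and 0.074. Choosing a gene by its smallest p favours a small spread, so nothing is read from it.

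The level of Hpca by library is set here beside the markers of other cell types, whose part in its difference was not tested. Relative to the control mean, Hpca was at -0.35, -0.50 and -0.51 (log2) in CRS 1 to 3, so CRS 1 was the highest of the stressed libraries, whereas the striatal and central amygdala list was at -2.93, -0.55 and -0.48 there and at 0.66, -0.47 and -0.18 in controls 1 to 3, with all 14 genes below control on average. Of 8 inhibitory neuron markers 6 had a mean below control, and the mean log2 level of the list was 0.15, -0.13 and -0.02 in controls and -0.23, -0.21 and -0.14 under stress. Of 7 astrocyte markers 6 were below control, and that list was at 0.01, 0.02 and -0.03 in controls and at -0.04, -0.20 and -0.14 under stress. By this mean log2 level the striatal, inhibitory and astrocyte lists were lower in every stressed than in every control library, by narrow margins, as Hpca and Kcnip2 were. The summed levels overlapped, at 824 to 1125 CPM in controls and 708 to 833 CPM under stress for the inhibitory list and at 6034 to 6611 and 5641 to 6501 CPM for the astrocyte list. Gad2, an enzyme that makes the transmitter GABA, was at 416, 291 and 255.5 CPM in controls and at 167, 237 and 254.9 CPM under stress, so its groups were separate by less than 1 CPM. The 9 oligodendrocyte markers were all below control on average (median -0.39 on the log2 scale), as were 5 endothelial and 6 choroid plexus markers, but these 3 lists overlapped between the groups. For oligodendrocytes the controls 1 to 3 stood at 0.40, -0.15 and -0.25 and the libraries CRS 1 to 3 at -0.63, -0.12 and -0.42. Other lists went the other way. All 8 glutamatergic markers were above control on average (median 0.12 on the log2 scale), as were 5 of 6 general neuron markers (median 0.10). Of 5 microglia markers 4 were below control (median -0.05). The mean log2 levels of these lists also overlapped between the groups. Control 1 and CRS 1 were the highest and lowest libraries for the striatal, inhibitory and oligodendrocyte lists. Without them the log2 fold change of Hpca was -0.48, against -0.45 with all libraries. The striatal, inhibitory and astrocyte lists stayed lower in CRS 2 and 3 than in controls 2 and 3. Leaving out libraries therefore does not remove these differences, and Hpca was chosen on the same libraries. Leaving out each library in turn gave -0.50 to -0.42. CRS 1 was also the library with high Fibcd1, and without it Hpca stood at -0.50; the part of hippocampal RNA in the level of Hpca was not tested.

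**Figure D2:**
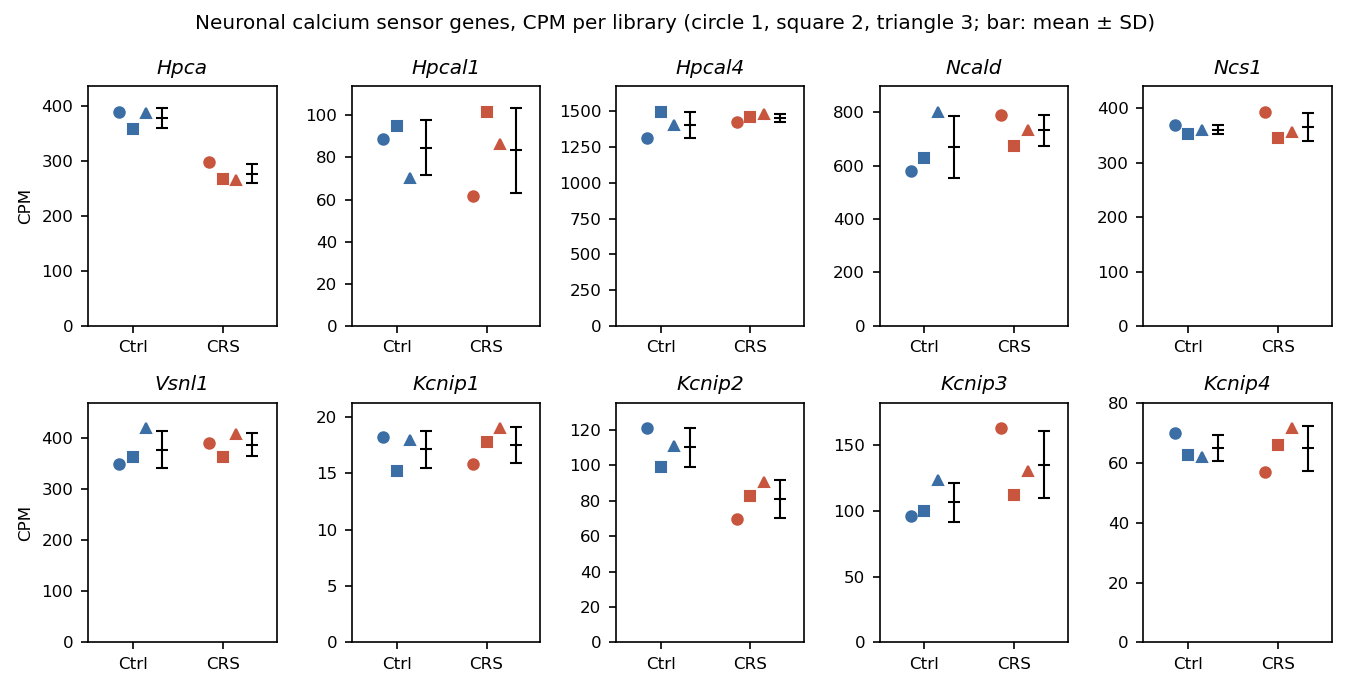
CPM of the 10 genes in each library, from 0 on each axis, with the mean and SD of 3 libraries beside the points. Only Hpca and Kcnip2 have all CRS points below all control points, at 266 to 298 against 358 to 390 CPM for Hpca.

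Hpcal1, the gene closest to Hpca in sequence and known also as VILIP-3, varied between libraries without a common direction. It was at 88.8, 95.1 and 70.2 CPM in controls 1 to 3 and 61.9, 102 and 86.6 CPM in CRS 1 to 3. The stressed libraries held both the lowest and the highest value, and the log2 fold change was -0.02 ± 0.20 (95% interval -0.50 to 0.46). Its spread within groups, 0.30 on the log2 scale, was the widest of the 10, and its direction turned above 0 without control 1 (0.02), control 2 (0.08) or CRS 1 (0.15).

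Ncald, a neurocalcin of neurons throughout the forebrain, was at 579, 627 and 801 CPM in controls 1 to 3 and 790, 673 and 732 CPM in CRS 1 to 3. Its groups overlapped, and the log2 fold change was 0.13 ± 0.13 (-0.17 to 0.42). Without control 1 and CRS 1 it was -0.02, so the direction rests on those libraries.

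Hpcal4, a visinin-like gene, was at 1309, 1496 and 1406 CPM in controls 1 to 3 and 1422, 1461 and 1477 CPM in CRS 1 to 3. All stressed libraries lay inside the control range, with a log2 fold change of 0.05 ± 0.08 (-0.13 to 0.23). Vsnl1, the gene of the visinin-like protein that is also measured in cerebrospinal fluid as a sign of neuronal injury, was at 349, 363 and 418 CPM against 389, 362 and 407 CPM. Its log2 fold change was 0.04 ± 0.09 (-0.16 to 0.23), and it turned to -0.01 without control 1.

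Ncs1 encodes the sensor that regulates phosphatidylinositol 4-kinase and desensitization of dopamine D2 receptors. It was at 369, 353 and 360 CPM in controls 1 to 3 and 394, 345 and 357 CPM in CRS 1 to 3. The groups overlapped and the log2 fold change was 0.02 ± 0.07 (-0.14 to 0.17).

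**Figure D3:**
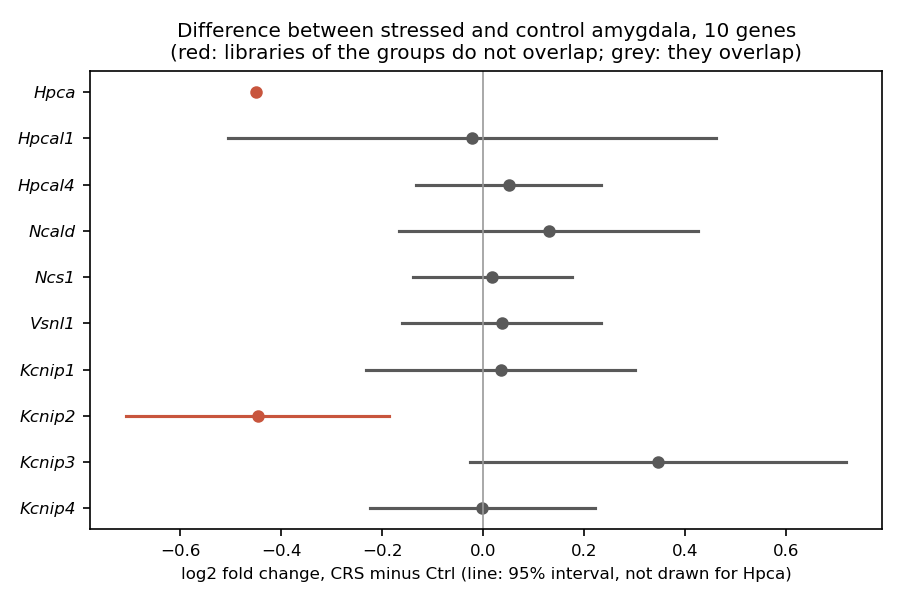
Log2 fold change of each gene, CRS minus Ctrl, with its 95% interval from edgeR's quasi-likelihood fit, except for Hpca, which was chosen on this comparison and has no interval. Hpca (-0.45) and Kcnip2 (-0.45) lie left of 0, Kcnip3 (0.35) lies right of 0 with an interval that includes it, and the other genes lie near 0.

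Among the KChIP genes the 4 members differed in direction. Kcnip2, whose product sets the A-type current of dendrites and of heart muscle, was at 121, 98.9 and 111 CPM in controls 1 to 3 and 69.4, 82.5 and 90.5 CPM in CRS 1 to 3. The groups did not overlap, and the level under stress was 73.4% of control, a log2 fold change of -0.45 ± 0.11 (-0.71 to -0.19; adjusted p = 0.997 in edgeR's quasi-likelihood test). The lowest value was in CRS 1, the library with the lowest striatal markers. Without control 1 and CRS 1 the log2 fold change was -0.28, and the part of the striatal, inhibitory neuron, astrocyte and oligodendrocyte marker levels in it was not tested. Groups that do not overlap in this direction were found for 2 of the 10 members and for 4.48% of all tested genes. In the other direction they were found for 0 members and 3.80% of genes. The 2 members include Hpca, which was chosen on this same comparison, so nothing is read from these counts.

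Kcnip3, the gene of DREAM, was at 95.6, 99.9 and 123 CPM in controls 1 to 3 and 163, 112 and 130 CPM in CRS 1 to 3. CRS 2 lay below control 3, so the groups overlapped, and the log2 fold change was 0.35 ± 0.16 (-0.03 to 0.72; adjusted p = 0.997 in edgeR's quasi-likelihood test). The highest value was again in CRS 1, where 8 glutamatergic markers were also highest, at 0.55 (log2) above the control mean. Without CRS 1 the log2 fold change of Kcnip3 was 0.19, and without control 1 and CRS 1 it was 0.12. Among the libraries low in choroid plexus markers it was at 123 CPM in control 3 and at 163 and 130 CPM under stress. Among the others it was at 95.6 and 99.9 CPM in controls and 112 CPM in CRS 2. This split is given for Kcnip3 only and leaves a single library on the control or the stressed side. It is a description, and the part of choroid plexus content in the level of Kcnip3 was not tested.

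The ratio of Kcnip2 to Kcnip3 counts was 1.26, 0.990 and 0.897 in controls and 0.427, 0.736 and 0.694 under stress. All stressed libraries were below all controls in this ratio, which was looked at after the values of both genes were known. Kcnip4, a KChIP expressed widely in the forebrain, was at 70.1, 62.8 and 62.2 CPM in controls 1 to 3 and 57.0, 66.2 and 71.7 CPM in CRS 1 to 3. Kcnip1 was at 18.2, 15.2 and 17.9 CPM against 15.8, 17.7 and 19.0 CPM. Both had overlapping groups and log2 fold changes of -0.0019 ± 0.10 (-0.23 to 0.22) and 0.03 ± 0.12 (-0.23 to 0.30). Kcnip1 rests on 154 to 191 counts per library, with a counting error of up to 8.06%.

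**Figure D4:**
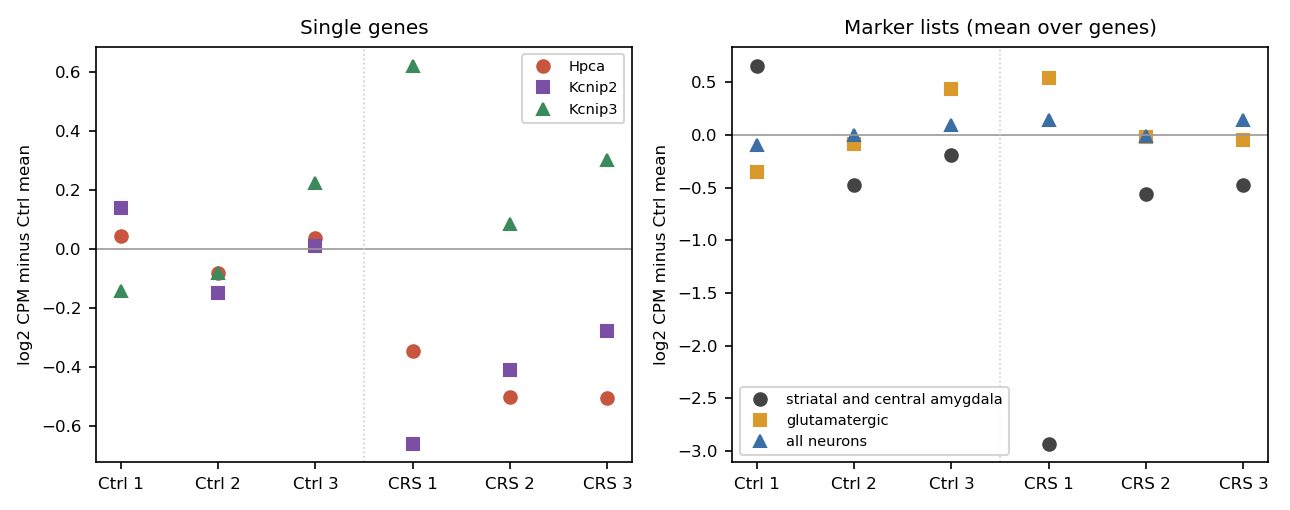
Log2 CPM of Hpca, Kcnip2 and Kcnip3 minus the control mean in each library (left) and the mean of the same quantity over 3 lists of marker genes (right). CRS 1 is the highest CRS library for Hpca (-0.35) and the lowest for Kcnip2 (-0.66), and it is the lowest of all libraries for the striatal and central amygdala list (-2.93).

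Whether the relatives move with Hpca was also read within libraries. The log2 ratio of Hpca to each relative, set to a control mean of 0, was lower in all stressed than in all control libraries for 7 of the 9 relatives. It was most even against Ncs1, at -0.47, -0.44 and -0.49 in CRS 1 to 3 and within 0.05 of 0 in controls. Against Hpcal1 and Kcnip2 the groups overlapped, with mean differences of -0.41 and -0.00042. All these ratios share the values of Hpca, which was chosen for being low under stress, so they add no independent evidence. The scaling of libraries cancels in such a ratio of counts.

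**Figure D5:**
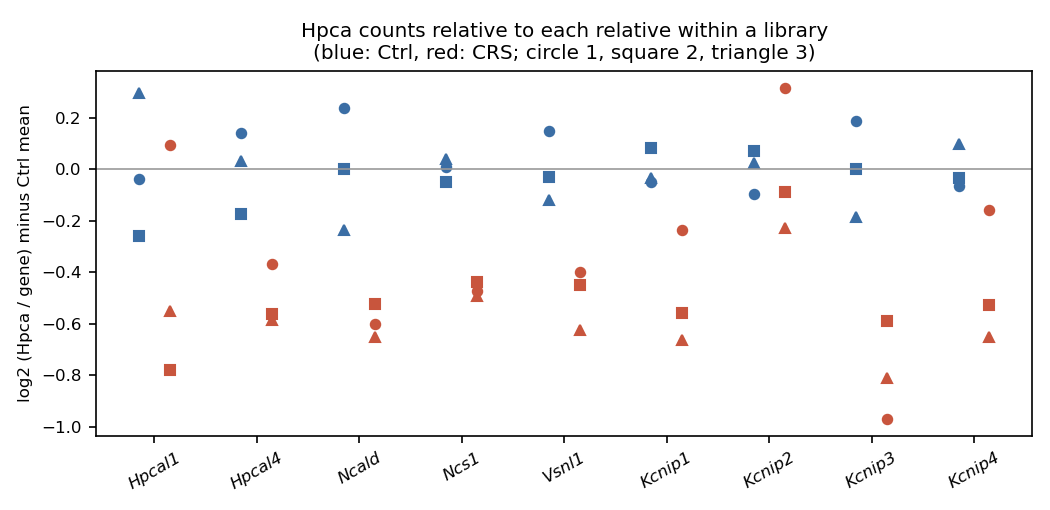
Log2 of Hpca counts over the counts of each relative in the same library, minus the control mean, for 9 relatives. Against 7 relatives the red CRS points lie below all blue control points, and against Hpcal1 and Kcnip2 they overlap.

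Within groups, where the comparison of stress with control plays no part, Hpca and its relatives deviated from their group means in few common ways. Ncs1 and Kcnip3 had the same sign of deviation as Hpca in 5 of 6 libraries, Ncald and Vsnl1 in 4, Kcnip1 and Kcnip2 in 3, Kcnip4 in 2, and Hpcal1 and Hpcal4 in 1. Kcnip2 had the same sign as Hpca in the 3 controls and the opposite sign in the 3 stressed libraries. With 3 libraries a group these signs are a description.

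The genes whose profile over the 6 libraries was most like that of Hpca were sought by the root mean square distance of centred log2 CPM among 10246 tested genes with a mean of at least 10 CPM. The nearest were Laptm5, a lysosomal membrane protein of immune cells, at a distance of 0.06 (log2), Plekhg1 at 0.06, the zinc finger gene Zfp771 at 0.07, the lipase Pnpla7 at 0.08 and the homeobox gene Pknox1 at 0.08. Their log2 fold changes ran from -0.46 (Plekhg1) to -0.35 (Zfp771), which follows from the choice. None of them is a calcium sensor. Among the relatives Kcnip2 was nearest, at a distance of 0.17 and rank 226, and Ncs1 came next at 0.24 and rank 2813. Kcnip3 was farthest, at 0.42 and rank 9822.

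Genes that work with these sensors were read from lists of partners. Of 5 genes of the Kv4 channel complex, which the KChIP proteins join, 0 passed the threshold in either direction in edgeR's quasi-likelihood test, and 0 had an unadjusted p under 0.05. The pore subunit Kcnd2 was at 189 ± 31.7 CPM without stress and 160 ± 20.8 CPM with it (log2 fold change -0.24 ± 0.14), Kcnd3 at 154 ± 15.4 and 165 ± 4.84 CPM (0.10 ± 0.08) and Kcnd1 at 7.39 ± 1.64 and 6.82 ± 2.28 CPM. The auxiliary subunits Dpp6 and Dpp10 were at 0.07 ± 0.07 and 0.08 ± 0.08 on the log2 scale. The median over the 5 genes was 0.07, against -0.0044 over all tested genes, and the groups overlapped for each of them.

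Of 10 binding partners of hippocalcin, NCS-1 and VILIP-1, 0 passed in either direction and 0 had an unadjusted p under 0.05; 3 were lower and 7 higher, with a median of 0.06. Ap2b1, the clathrin adaptor subunit that hippocalcin binds, was at 0.10 ± 0.08, the postsynaptic scaffold Dlg4 at -0.03 ± 0.09 and the kinase Map3k10 at 0.06 ± 0.11. The NCS-1 partners were at 0.04 ± 0.06 (Pi4kb), 0.06 ± 0.06 (Arf1), 0.15 ± 0.10 (Ric8a) and -0.05 ± 0.13 (Il1rapl1). The dopamine receptor Drd2, which is also one of the striatal markers, was at 29.2 ± 14.4 CPM without stress and 12.7 ± 9.48 CPM with it. The nicotinic receptor subunits Chrna4 and Chrnb2, partners of VILIP-1, were at 0.34 ± 0.37 and 0.09 ± 0.09. Both N-myristoyltransferases, the enzymes that attach the myristoyl group, were slightly above their control mean, Nmt1 at 0.08 ± 0.07 and Nmt2 at 0.08 ± 0.07.

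A list of other EF-hand proteins held calcium buffers and other calcium binding proteins. Of 16 such genes 15 were tested, 0 passed in either direction and 0 had an unadjusted p under 0.05, with 10 lower, 5 higher and a median of -0.02. Calm2 and Calm3 were at 0.02 ± 0.08 and -0.01 ± 0.09, and the calcineurin subunit Ppp3r1 at -0.02 ± 0.08. The buffers calbindin (Calb1), calretinin (Calb2) and parvalbumin (Pvalb) were at -0.09 ± 0.07, -0.14 ± 0.44 and -0.18 ± 0.19, and Cabp1, the gene of caldendrin, at -0.07 ± 0.22. The sensors of the retina were at the edge of detection, with Rcvrn at 0.931 ± 0.177 CPM and Guca1b at 0.235 ± 0.159 CPM in controls and 1 count of Guca1a in all 6 libraries together.

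Bases before a RefSeq start of Hpca and of Kcnip2, the pair that was lower in every stressed library, are shown here. The reason is that DREAM, the product of Kcnip3, binds DNA at a sequence with the core GTCA. Each window holds the 250 bases before a transcript start in RefSeq (GRCm38.p6), on the minus strand, 5′ to 3′, with GTCA or its reverse complement TGAC in capitals. For Hpca, which has 3 starts in RefSeq, the window whose start is nearest to that of the principal GENCODE transcript is given. That RefSeq start lies 289 bases downstream of the GENCODE start. The Hpca window is therefore inside the span of the principal transcript and not before it. For Kcnip2 the distance between the RefSeq and GENCODE starts is 2 bases.
Hpca, chr4:129121748-129121997: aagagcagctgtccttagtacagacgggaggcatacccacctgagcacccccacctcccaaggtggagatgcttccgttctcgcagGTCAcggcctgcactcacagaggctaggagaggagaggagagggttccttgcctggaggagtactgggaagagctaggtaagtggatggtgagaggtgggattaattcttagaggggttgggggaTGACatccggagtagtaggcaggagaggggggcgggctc
Kcnip2, chr19:45816064-45816313: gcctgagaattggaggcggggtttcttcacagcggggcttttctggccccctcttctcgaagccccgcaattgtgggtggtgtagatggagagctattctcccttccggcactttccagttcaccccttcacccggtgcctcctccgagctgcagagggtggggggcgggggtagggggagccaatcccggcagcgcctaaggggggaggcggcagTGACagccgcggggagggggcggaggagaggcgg
The core occurred 2 times in the Hpca window and 1 time in the Kcnip2 window, on either strand. It is short, and 80.2% of all 32851 windows of this length in the table held it. The GC box GGGCGG, read on both strands, occurred 1 time for Hpca and 2 times for Kcnip2, and in 32.7% of all windows. These matches describe the letters and say nothing of binding.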

How the data were processed

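Each library came as its own table of raw counts for 26264 gene symbols, as the authors deposited them, neither normalized nor pooled. Per the submitters' processing notes, FastQC 0.12.1, STAR 2.7.7a, HTSeq 0.13.5 and edgeR 3.42.4 were used with the build mm39, with no role stated; no source used here gives the annotation or strand setting. Rows for reads without a gene were left out of library sizes: 53.0 to 57.4% of reads had no feature, 6.97 to 8.16% aligned to more than 1 place and 0.162 to 0.194% were ambiguous. No 2 libraries agreed within sampling noise (lowest chi-square per gene 2.95).

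The analysis ran edgeR 4.0.16 in R 4.3.3: filterByExpr (minimum count 10, minimum total 15), TMM factors, and the robust quasi-likelihood F test for CRS minus Ctrl over all 14739 genes, with Benjamini-Hochberg adjustment and a threshold of 0.05. Each SE was derived as |log2 fold change| divided by the root of F. CPM use the summed counts of tested genes times TMM factors, and log2 CPM a prior count of 2. Alternatives used limma 3.58.1, DESeq2 1.42.0 and left-out libraries. On simulated data for CRS against Ctrl with these 14739 genes, the procedure called 38.4% of 1.5-fold and 67.2% of 2-fold changes, and 9.23% of its calls were false. The simulated counts were drawn independently for each gene, with 200 genes changed per run. Shifts shared by many genes, as between these dissections, were not simulated, so the percentages hold for that setting only. Coding sequences were aligned with Biopython 1.88; GENCODE M21 and RefSeq tables are of GRCm38, another build than the counts, and were matched by symbol (9 of 10 members had a promoter window, Ncald none). The members, gene lists and the rule for named genes (all members, the listed partner genes, and the 5 genes nearest to Hpca) were chosen with earlier results of these data known. For the list of other EF-hand proteins, 1 gene that the rule names is not reported here.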

Additional observations from a re-analysis of the deposited data

How the results depend on the processing

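Over 15 alternatives Hpca, Kcnip2, Kcnip3 and Hpcal4 kept their direction (Hpca -0.50 to -0.42, Kcnip2 -0.54 to -0.28, Kcnip3 0.12 to 0.47, Hpcal4 0.0054 to 0.11), and the median over the members stayed between -0.015 and 0.069. DESeq2 called 2 genes and 1 member, Hpca (-0.44), and edgeR's likelihood ratio test called 4 genes and 1 member, Hpca (-0.45), which was chosen on this comparison; limma-voom called 0 genes. Without each library in turn, 0 to 1 genes and 0 members were called; the gene called without control 3 was Rn18s. Members near 0 changed sign. Kcnip4 was at 0.0059 with RLE factors, 0.00068 without a filter, 0.0059 with DESeq2, 0.06 without control 1 and 0.08 without CRS 1. Ncs1 was at -0.00061 with library size alone. With each library left out in turn, Hpcal1 ranged from -0.18 to 0.15, Ncs1 from -0.040 to 0.061, Vsnl1 from -0.014 to 0.12, Kcnip1 from -0.035 to 0.10 and Kcnip4 from -0.079 to 0.08. Without control 1 and CRS 1 together, Hpcal1 was at 0.19, Ncald at -0.024, Ncs1 at -0.023, Vsnl1 at -0.022 and Kcnip4 at 0.14. The cause was not tested.

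Replicate numbers are shared between the groups, and the labels name no pairing. The deviations of same-numbered libraries correlated at -0.32, 0.53 and 0.28, and 3 of 6 libraries correlated best with their own number. These values come from 3 libraries a group and cannot decide whether the numbers pair them. The main fit used no pairing. With the replicate block 0 genes were called and Hpca was at -0.45. With 3 libraries a group, an exact permutation test of a single gene cannot go below p = 0.1.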

Other observations

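The values of 3 EF-hand genes outside the calcium sensor family are given here, chosen after they were seen. Cabp7, a calcium binding protein of the caldendrin family, was at 85.6 CPM in CRS 1 and at 28.5 to 46.7 CPM in the other 5 libraries. Necab1, a neuronal calcium binding protein, was at 375, 312 and 341 CPM in controls and at 241, 317 and 298 CPM in CRS 1 to 3; the groups overlapped and the log2 fold change was -0.26 ± 0.11. Scgn, the gene of secretagogin, was left out of the test for low counts, with 10, 8 and 6 counts in controls and 1, 3 and 3 counts under stress, so its groups did not overlap.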
